A study of Mus musculus with 18 samples.

Results

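The transcripts described here are those of 10 interstitial collagen chains, chosen by name from the 23420 genes listed in each deposited table. They are the fibril-forming chains *Col1a1*, *Col1a2*, *Col3a1*, *Col5a1* and *Col5a2*, the collagen VI chains *Col6a1*, *Col6a2* and *Col6a3*, and the fibril-associated chains *Col12a1* and *Col14a1*. All 10 were listed in all 3 tables and passed the filter on low values in each of them. The question addressed was whether the RNA of these chains differed between mutant and control lungs, and between controls of the 2 stages.

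Interstitial collagens are made mainly by mesenchymal cells. Their chains are wound into a helix in the endoplasmic reticulum, secreted, trimmed by proteinases and cross-linked outside the cell. Collagens I and III form the bulk of the fibrils of soft connective tissue, and collagen V lies within these fibrils and sets their diameter. Collagen VI forms beaded microfilaments around cells. Collagens XII and XIV sit on the surface of fibrils. In the embryonic lung, this matrix surrounds the branching epithelial tubes.

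RNA from embryonic mouse lungs was sequenced in 3 experiments, each with 3 control and 3 mutant libraries. In the *Vangl1/2* experiment, at embryonic day E12.5, the mutants were *Vangl1*-/-; *Vangl2*-/- and the controls *Vangl1*-/- with *Vangl2* kept, so that the loss of *Vangl1*, made by a gene trap, was shared by both groups. *Vangl2* had been deleted from a floxed allele in all tissues by Sox2-Cre. In the *Dermo1Cre* experiment, also at E12.5, *Wnt5a f/f; Dermo1Cre* mutants were set against *Wnt5a f/+; Dermo1Cre* controls. In the *Sox9Cre* experiment, at E13.5, *Wnt5a f/f; Sox9Cre* mutants were set against *Wnt5a f/+; Sox9Cre* controls. *Vangl1* and *Vangl2* encode membrane proteins of planar cell polarity, and *Wnt5a* a secreted Wnt ligand. Both Cre genes are knock-ins, which every control carries too, together with 1 floxed *Wnt5a* allele. Dermo1-Cre acts in the mesenchyme and Sox9-Cre in the epithelium, so that cells outside the range of each Cre keep *Wnt5a*. The number of embryos per library is not given in the sources used here. The labels do not say that replicates came from separate embryos, so the p-values measure only the spread between these libraries.

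Values are normalized counts, that is, reads on a gene divided by a size factor of the library. Each library held between 15945393 and 19814346 reads on genes. The 7 markers of lung mesenchyme and the 7 of lung epithelium were detected in every library. *Vangl2* read 277, 406 and 334 in the *Vangl1/2* controls and 87, 80 and 90 in the mutants. It was lower in all 3 mutants, by a log2 fold change of −1.96 (SE 0.17, limma adjusted p = 0.0318). *Wnt5a* read 472, 430 and 489 in the *Dermo1Cre* controls and 317, 436 and 230 in the mutants, and 473, 453 and 426 against 442, 362 and 448 in the *Sox9Cre* experiment. In both experiments the groups overlapped, with adjusted p-values of 0.406 and 1.0 (limma), so this level did not separate the genotypes. Counts over a whole gene can include reads from parts of it that the recombination leaves in place. Control replicates 1 and 3 of the *Vangl1/2* experiment stood apart from the other libraries for the interstitial collagens, and the results of that experiment are given with and without its controls. Over all genes, control replicate 2 was the one unlike the other controls. The chi-square per degree of freedom between the reads of 2 libraries was 49.2 against replicate 1 and 74.2 against replicate 3. Between replicates 1 and 3 it was 9.9, and within the other groups at most 15.8. As these are bulk lungs, fewer collagen-producing cells and less RNA per cell cannot be told apart.

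**Figure D1:**
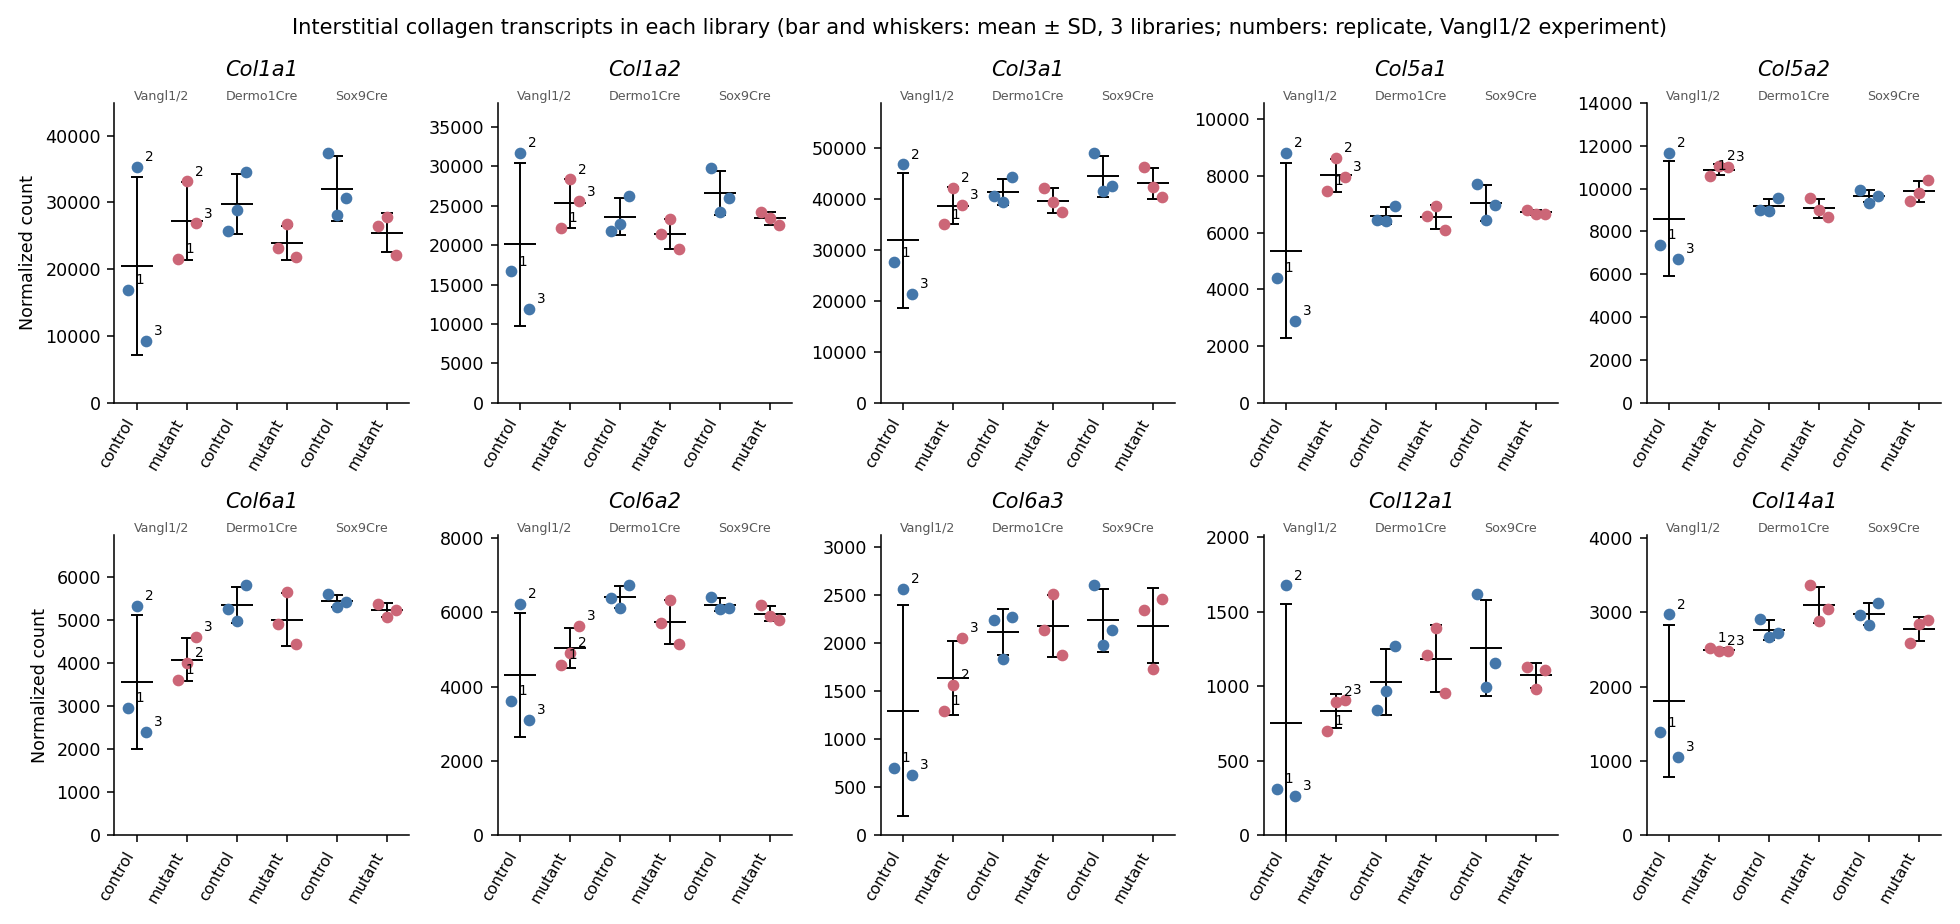
Normalized counts of each interstitial collagen transcript (y axis, linear, from 0) in every library, by experiment and group (x axis). Points are libraries, bars and whiskers give the mean ± SD of 3 libraries, and replicate numbers are printed for the *Vangl1/2* experiment. Control replicates 1 and 3 of that experiment lie below its 3 mutants for all 10 genes, and control replicate 2 lies above them.

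The chains spanned a wide range of levels. Levels per length, as reads per kilobase of merged exons scaled to the reads on genes of the library (RPKM), averaged over all 18 libraries, ran from 240.4 for *Col3a1* to 4.01 for *Col12a1*. *Col1a1* followed *Col3a1* at 238.7 RPKM, and *Col3a1* was above it in 9 of 18 libraries, so the order of these 2 did not hold beyond the spread. *Col1a2* came next at 111.1 RPKM. *Col6a1*, at 64.8 RPKM, was above *Col5a2*, at 58.4, in 12 of 18 libraries. *Col5a1* reached 46.6, *Col6a2* 40.0, *Col14a1* 22.5 and *Col6a3* 9.68 RPKM. The length used decided part of this order. With the longest annotated transcript in place of the merged exons, *Col1a2* stood at 258.2 RPKM beside 264.2 for *Col1a1*, and *Col3a1* at 424.1 RPKM was above both in all 18 libraries. *Col14a1*, *Col6a3* and *Col12a1* were the 3 lowest on both scales, in that order in all 18 libraries. The 10 transcripts together took between 0.295% and 0.947% of the reads on genes in a library.

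The genes lie on 7 chromosomes of the GRCm38 assembly, with 2 pairs of neighbours in the GENCODE annotation (release 21). *Col3a1* (chromosome 1, 45311538 to 45349706, plus strand) and *Col5a2* (chromosome 1, 45374321 to 45503282, minus strand) are 24614 bases apart. *Col6a2* (chromosome 10, 76595762 to 76623630, minus strand) and *Col6a1* (chromosome 10, 76708792 to 76726168, minus strand) are 85161 bases apart. *Col6a1* and *Col6a2*, which encode partner chains of the same microfilament, had the steadiest ratio of reads of the 8 compared, with group means from 0.807 ± 0.018 in the *Vangl1/2* mutants to 0.876 ± 0.023 in the *Sox9Cre* mutants (SD, n = 3 libraries).

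The 250 bases before the start are shown for 3 of the genes that differ in base composition. They were read from RefSeq, GRCm38.p6, where 6 of the 10 genes had an entry. For *Col1a2* the RefSeq start differs from the GENCODE gene start, 4504814. Its stretch therefore lies inside the GENCODE gene, and its positions refer to the RefSeq start. Capitals mark the motif CCAAT, searched on both strands.
Col3a1 (chr1:45311288-45311537, plus strand): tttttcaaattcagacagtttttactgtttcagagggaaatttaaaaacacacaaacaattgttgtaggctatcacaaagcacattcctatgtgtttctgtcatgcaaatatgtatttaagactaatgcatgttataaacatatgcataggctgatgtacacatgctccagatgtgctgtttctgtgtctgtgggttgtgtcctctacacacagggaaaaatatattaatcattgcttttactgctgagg
Col1a2 (chr6:4505368-4505617, plus strand): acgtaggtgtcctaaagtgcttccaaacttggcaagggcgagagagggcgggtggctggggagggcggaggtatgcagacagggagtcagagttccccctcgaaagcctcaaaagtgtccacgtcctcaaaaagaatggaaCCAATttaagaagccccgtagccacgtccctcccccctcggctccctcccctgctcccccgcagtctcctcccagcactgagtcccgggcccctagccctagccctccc
Col5a1 (chr2:27886175-27886424, plus strand): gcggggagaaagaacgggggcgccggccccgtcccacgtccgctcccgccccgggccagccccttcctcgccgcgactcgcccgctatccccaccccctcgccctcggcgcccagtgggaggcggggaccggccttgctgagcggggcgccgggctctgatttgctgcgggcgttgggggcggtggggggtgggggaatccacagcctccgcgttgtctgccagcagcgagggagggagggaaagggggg
The share of G and C was 35.2% for *Col3a1*, 62% for *Col1a2* and 76.4% for *Col5a1*, beside a median of 52.4% over all promoters. CCAAT, the motif of the factor NF-Y, was present only in *Col1a2*, with its first base 109 bases before the start, among the 6 genes with an entry, and in 33.8% of all 32851 promoters. TATAA was present only in *Col3a1* and in 22.8% of all promoters. GGGCGG, which Sp1 is known to bind, was found for *Col1a2*, *Col5a1* and *Col6a2*, and in 32.7% of all promoters. CAGAC was found for 5 of the 6 genes and in 42.2% of all promoters. Both strands were searched for each. These are matches of letters, not binding sites.

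In the *Vangl1/2* experiment, every interstitial collagen had a higher mean log2 level in the mutants, but the mutants lay inside the range of the controls. *Col1a1*, the main chain of collagen I, read 16896, 35260 and 9293 in the controls and 21491, 33118 and 26838 in the mutants. *Col3a1*, the single chain of collagen III, read 27558, 46785 and 21436 against 35020, 42250 and 38856. *Col5a1* read 4395, 8816 and 2898 against 7464, 8639 and 7959. For all 3, control replicates 1 and 3 were low, control replicate 2 was the highest library, and the mutants lay between. The same held further down the range of levels. *Col6a3*, the longest of the collagen VI chains here, read 698, 2561 and 627 against 1295, 1564 and 2051. *Col12a1* read 314, 1677 and 265 against 701, 894 and 911. *Col14a1* read 1384, 2969 and 1059 against 2523, 2476 and 2473, so that its 3 mutants were nearly equal while its controls spread over more than their mean.

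The log2 fold changes of the 10 genes ran from 0.27 for *Col6a1* to 0.73 for *Col5a1* (SE 0.34, limma adjusted p = 0.258, the smallest of the 10), with a median of 0.52 beside −0.01 over all 14303 genes tested. None of the 10 passed an adjusted p of 0.05 in limma, edgeR or DESeq2, where limma and edgeR each called 0.00699% of all genes and DESeq2 0.14%. At an unadjusted p under 0.05, limma also took 0 of the 10, beside 20.5% of all genes. All 10 were above 0, beside 48.8% of all genes. In all 10 the groups overlapped, beside 22.3% of all genes whose groups did not. Control replicates 1 and 3 were below all mutants for all 10, as for 31.2% of all genes. With control replicate 2 above all mutants as well, the count was still 10 of 10, beside 5.15% of all genes, an order that was looked for after the values were seen.

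The size of the difference depended on single controls. Without control replicate 2, all 10 genes were called higher in the mutants (median log2 fold change 0.94, range 0.58 to 1.52, largest limma adjusted p = 0.0035), in a fit that called 43.6% of all genes and 21.7% as higher. *Col12a1*, which binds the surface of fibrils, was then at 1.52 (SE 0.13) and *Col6a3* at 1.28 (SE 0.16). Without control replicate 1 the median was 0.33 and without control replicate 3 it was 0.16, with 0 of 10 called in both. These 2 fits called 0% of all genes, so the absence of calls there was not particular to the collagens. Without both of these, which leaves control replicate 2 against 3 mutants, all 10 were below 0 (median −0.32, range −1.01 for *Col12a1* to −0.10 for *Col5a2*, smallest limma adjusted p = 0.19), so the direction of the difference rested on these 2 controls. That fit assumes that a lone control varies like the mutants, and it was added after the values were seen. With a trend on transcript length removed from each library, the median was 0.18, the range 0.07 to 0.34 and the smallest adjusted p 0.642, in a fit that called 0.00705% of all genes. On the recovered reads the median was 0.33 by edgeR and 0.34 by DESeq2.

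The erythroid markers, of which 3 of 5 were listed and *Hba-a1* was at 0 in every library, summed to 42379, 25136 and 39244 in the controls and 31730, 28388 and 22928 in the mutants. The sum was highest in the 2 controls with little collagen RNA. The 7 mesenchyme markers summed to 17700, 19422 and 18053 against 20437, 21187 and 20579, without overlap. Of these, 3 of 7 were higher and 1 of 7 lower at an unadjusted p under 0.05. In this experiment 20.5% of all genes were under that p. Control replicates 1 and 3 had 0.416% and 0.295% of their reads on the 10 collagens, against 0.829% in control replicate 2, while the mesenchyme sums of the 3 differed far less. The smooth muscle markers did not follow these controls. The 4 smooth muscle markers had a median log2 fold change of −0.56, with 3 of 4 lower at an unadjusted p under 0.05, and summed to between 7869 and 11588 in the controls and between 5986 and 8914 in the mutants. Control replicate 1 had the lowest of these control sums and control replicate 3 the highest. The 3 mesothelial markers summed to 2214, 2484 and 1582 against 2805, 4045 and 2361, and of the 2 tested 1 was higher at an unadjusted p under 0.05 (median log2 fold change 0.57). Among the controls, the mesothelial sum was highest in replicate 2 and lowest in replicate 3, the same order as the collagens. The 7 epithelial markers had a median log2 fold change of −0.20, with 0 of 7 at an unadjusted p under 0.05. Of the 5 neuronal and glial markers all were above 0, and 1 was higher by this measure. Of the 5 cardiomyocyte markers tested 2 were above 0, and 0 were under this p. The part of all these marker lists in the collagen values was not tested.

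**Figure D2:**
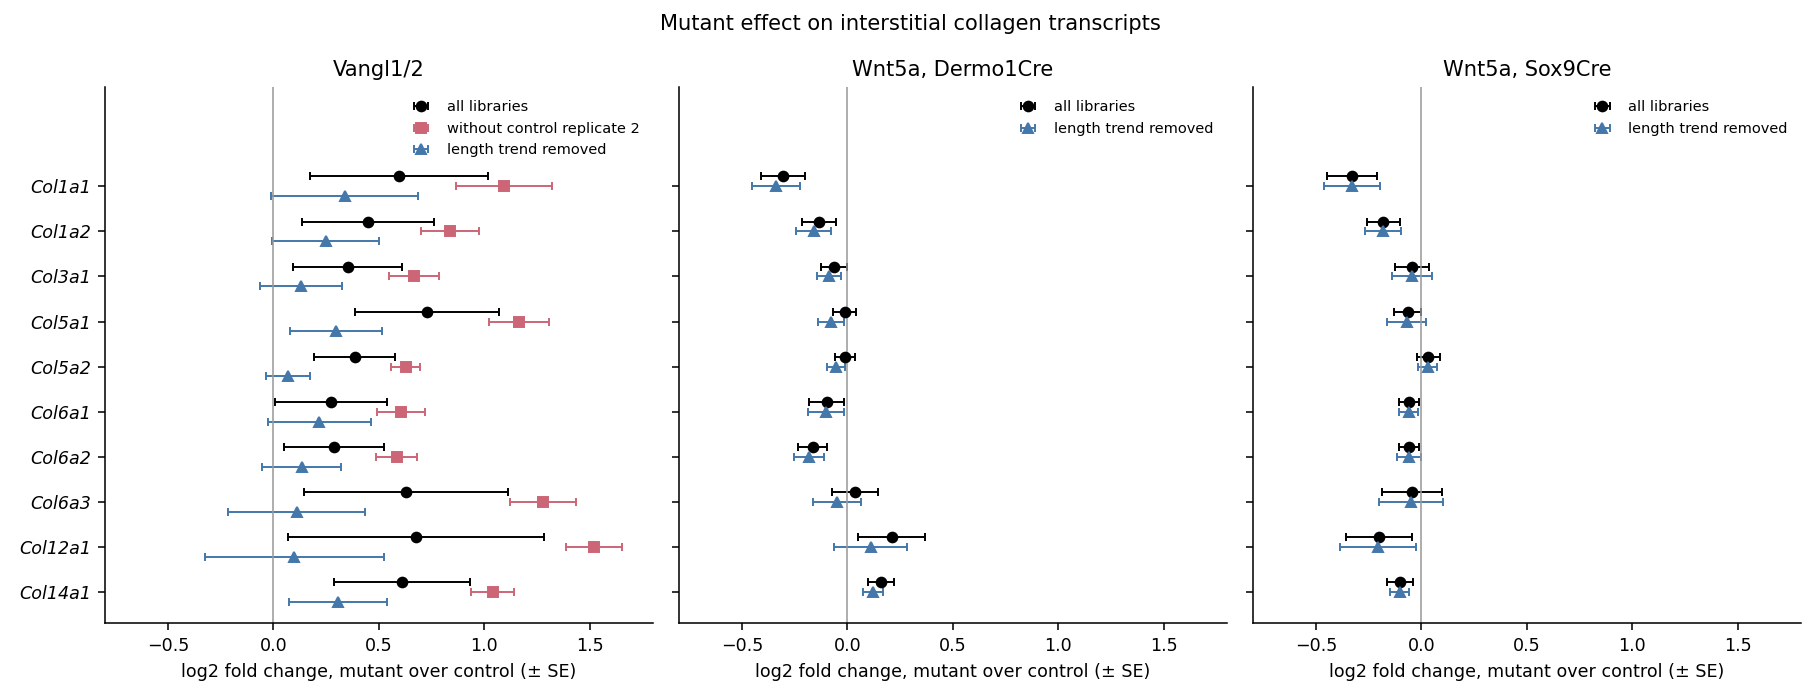
Log2 fold change of mutant over control (x axis, ± SE, limma) for each interstitial collagen (y axis) in the 3 experiments, with all libraries, with a trend on transcript length removed and, for *Vangl1/2*, without control replicate 2. In the *Vangl1/2* experiment the median moved from 0.52 to 0.94 without control replicate 2 and to 0.18 with the length trend removed, and in the *Wnt5a* experiments *Col1a1* was lowest at −0.31 and −0.33.

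With *Wnt5a* deleted in the mesenchyme, the interstitial collagens differed little from controls, and *Col1a1* had the largest difference. It read 25668, 28907 and 34576 in the *Dermo1Cre* controls and 23212, 26749 and 21862 in the mutants. Mutant replicate 2 was above the lowest control, so the groups overlapped. The log2 fold change was −0.31 (SE 0.11, limma unadjusted p = 0.017, adjusted p = 0.414), and −0.19 without control replicate 3, the highest control. *Col1a2* read 21799, 22715 and 26266 against 21462, 23350 and 19550 (log2 fold change −0.14, SE 0.08, adjusted p = 0.589 by limma). The other fibril-forming chains were nearer to the controls, with log2 fold changes of −0.06 for *Col3a1*, −0.01 for *Col5a1* and −0.01 for *Col5a2*.

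The fibril-associated chains lay on the other side of 0 in this experiment. *Col14a1* read 2913, 2659 and 2718 in the controls and 3358, 2874 and 3048 in the mutants, where a single mutant lay within the control range (log2 fold change 0.16, SE 0.06, limma unadjusted p = 0.026, adjusted p = 0.441). *Col12a1* read 843, 972 and 1273 against 1213, 1394 and 953 (log2 fold change 0.21, SE 0.16). *Col6a2* was lower by a log2 fold change of −0.17 (SE 0.07, limma unadjusted p = 0.041, adjusted p = 0.478), from 6390, 6119 and 6724 to 5707, 6336 and 5161. *Col6a1* and *Col6a3* were at −0.10 and 0.04.

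None of the 10 was called in the *Dermo1Cre* experiment by limma, edgeR or DESeq2, where limma and edgeR each called 0.014% of 14277 genes and DESeq2 0.7%. At an unadjusted p under 0.05, limma took 3 of 10, beside 10.2% of all genes. The groups overlapped for all 10, beside 15.6% of all genes without overlap. The median log2 fold change was −0.04, beside 0.00 over all genes. The 7 epithelial markers summed to between 13203 and 13936 in these controls and to between 12261 and 12372 in the mutants, with 5 of 7 lower at an unadjusted p under 0.05. All 4 smooth muscle markers were lower by the same measure, and 4 of 5 neuronal and glial markers higher. Of the 7 mesenchyme markers 2 were lower and 0 higher by it. They summed to between 16354 and 17264 in the controls and between 16845 and 16928 in the mutants, with overlap. The part of all these markers in the collagen values was not tested.

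With *Wnt5a* deleted in the epithelium, *Col1a1* was again the chain with the largest difference. It read 37409, 28040 and 30660 in the *Sox9Cre* controls and 26392, 27755 and 22185 in the mutants. All 3 mutants were below all controls, the highest mutant by a narrow margin. The log2 fold change was −0.33 (SE 0.12, limma unadjusted p = 0.023, adjusted p = 1.0). *Col1a2* read 29749, 24199 and 25988 against 24249, 23463 and 22520, with overlap (log2 fold change −0.18, SE 0.08, limma unadjusted p = 0.047, adjusted p = 1.0). *Col3a1* read 49072, 41591 and 42609 against 46344, 42329 and 40472 and was at −0.04. *Col12a1* was at −0.20 (SE 0.16), at −0.0038 without control replicate 1 and −0.353 without control replicate 2. *Col14a1* was at −0.10 (SE 0.06), and the 3 collagen VI chains were between −0.06 and −0.04.

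In the *Sox9Cre* experiment too, 0 of the 10 were called by limma, edgeR or DESeq2, where limma called 0% of 14293 genes and 557 of them had an unadjusted p under 0.05. DESeq2 called 9 of all genes, or 0.063%. By limma, 2 of 10 had an unadjusted p under 0.05, beside 3.9% of all genes. Of the 10 genes 1 had groups without overlap, beside 8.78% of all genes. Without control replicate 1, the highest control, *Col1a1* was at −0.21. The cardiomyocyte markers, all 6 of them lower in the mutants and 5 of 6 at an unadjusted p under 0.05, summed to between 4229 and 15376 in the controls and between 750.4 and 4563 in the mutants. The 3 mesothelial markers summed to between 2165 and 2558 against 1647 and 2101. The 5 endothelial markers summed to between 11918 and 12136 against 11394 and 11899. The 7 mesenchyme markers were all above 0 (median log2 fold change 0.05), with 0 of 7 at an unadjusted p under 0.05. They summed to between 16062 and 16923 in the controls and between 15878.5 and 17720 in the mutants, with overlap. The part of all these markers in the *Col1a1* value was not tested.

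The effects in the 3 experiments were compared directly by an interaction term over all 18 libraries. The difference of the mutant effect between the *Vangl1/2* and *Dermo1Cre* experiments was largest relative to its error for *Col5a1*, at 0.74 (SE 0.34, limma adjusted p = 0.28), and between the *Vangl1/2* and *Sox9Cre* experiments again for *Col5a1*, at 0.80 (SE 0.34, adjusted p = 0.173). None of the 10 was called in either contrast, where 0.0143% of 13980 genes were called. Without *Vangl1/2* control replicate 2, all 10 were called in both, beside 32.8% and 39.3% of all genes. Between the *Dermo1Cre* and *Sox9Cre* experiments 0 of 10 were called, with 0% of all genes, and 0 of 10 and 368 of all genes had an unadjusted p under 0.05. *Col1a1* differed by 0.02 there (SE 0.44, adjusted p = 1.0). The fit held a single error per gene over all 18 libraries, so the spread of the *Vangl1/2* controls entered this SE too. The absence of calls in this contrast therefore does not show that the 2 effects were equal.

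Ratios between chains within a library do not depend on its scaling. The ratio of *Col1a1* to *Col1a2* reads, the chains of collagen I, was 1.18, 1.27 and 1.32 in the *Dermo1Cre* controls and 1.08, 1.15 and 1.12 in the mutants, without overlap. In the *Sox9Cre* experiment it was 1.26, 1.16 and 1.18 against 1.09, 1.18 and 0.985, where mutant replicate 2 fell among the controls. The ratio of *Col3a1* to *Col1a1* in that experiment was 1.31, 1.48 and 1.39 in the controls and 1.76, 1.53 and 1.82 in the mutants, without overlap. *Col5a1* to *Col1a1* was higher in the mutants of both *Wnt5a* experiments, from 0.224 ± 0.025 to 0.274 ± 0.013 in *Dermo1Cre* and from 0.221 ± 0.013 to 0.266 ± 0.031 in *Sox9Cre* (SD, n = 3), again without overlap. These ratios share *Col1a1* and are not independent of its fold change. In the *Dermo1Cre* mutants *Col6a2* to *Col6a3* was also below the controls, at 2.65 ± 0.12 against 3.05 ± 0.25. In the *Vangl1/2* experiment 0 of 8 ratios had groups without overlap. There *Col6a1* to *Col6a3* was 4.24, 2.08 and 3.81 in the controls and 2.79, 2.56 and 2.24 in the mutants. *Col14a1* to *Col12a1* was 4.41, 1.77 and 4 against 3.60, 2.77 and 2.71. The second gene of both ratios has the longer transcript, and the part of transcript length in the ratios was not tested. Of 24 tests, 8 ratios in each experiment, 5 had groups without overlap. No share over ratios of other genes was taken, so this count cannot be set against them. Each of the 5 ratios without overlap had a two-sided exact permutation p of 0.1, the smallest that 3 libraries against 3 allow. Its adjusted p was 0.48 over the 24 tests. With 3 libraries against 3, this test could not pass 0.05 for any ratio, whatever the size of the difference.

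**Figure D3:**
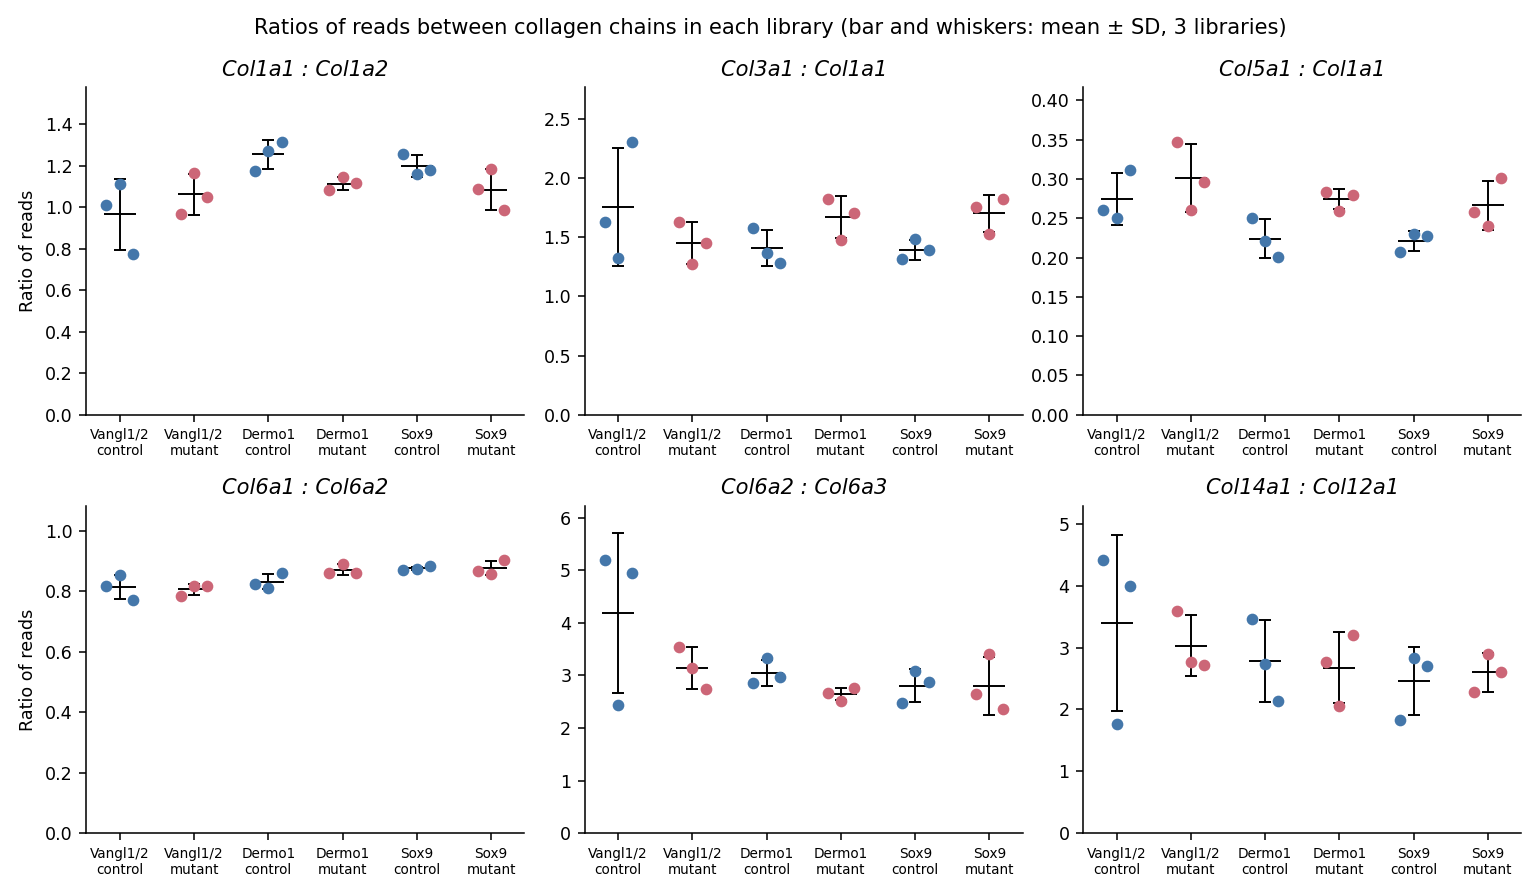
Ratios of reads between chains (y axis, linear, from 0) in every library, by experiment and group (x axis), for 6 of the 8 ratios. Points are libraries, and bars and whiskers give the mean ± SD of 3 libraries. *Col5a1* to *Col1a1* lies higher in the mutants of both *Wnt5a* experiments, and *Col6a1* to *Col6a2* stays between group means of 0.807 and 0.876.

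Per kilobase, the mean ratio of *Col1a1* to *Col1a2* over all libraries was 2.11 with merged exons and 1.0 with the longest transcripts. *Col6a1* to *Col6a2* was 1.61 and 1.01 on these scales. *Col6a1* to *Col6a3* was 7.13 and 6.43, so *Col6a3* was the lowest of these 3 chains on both. *Col14a1* to *Col12a1* was 6.13 and 5.03.

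The chains varied together between libraries of a group. Over the 18 libraries, the deviations from the group means on the log2 scale gave a median Pearson's r of 0.93 between pairs of the 10 (range 0.81 to 0.99). Pairs of other genes were not measured, so this median cannot be set against theirs. Without the 6 *Vangl1/2* libraries, the median was 0.61 and the range −0.33 to 0.96. *Col14a1* then stood apart, with r = −0.10 to the mean of the 10, which includes it, while *Col5a1* had r = 0.98 and *Col12a1* r = 0.97. The genes outside the set with the highest r to the mean of the 10, of 13970 ranked, were *Nrp2* (0.98), *Cacna1g* (0.98), *Col16a1* (0.98), *Tenm3* (0.98) and *Med13l* (0.98). Over the 12 other libraries these were at 0.96, 0.75, 0.92, 0.83 and 0.64. *Col16a1* encodes a further fibril-associated collagen. The libraries of an experiment were scaled together, and these values describe the libraries.

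**Figure D4:**
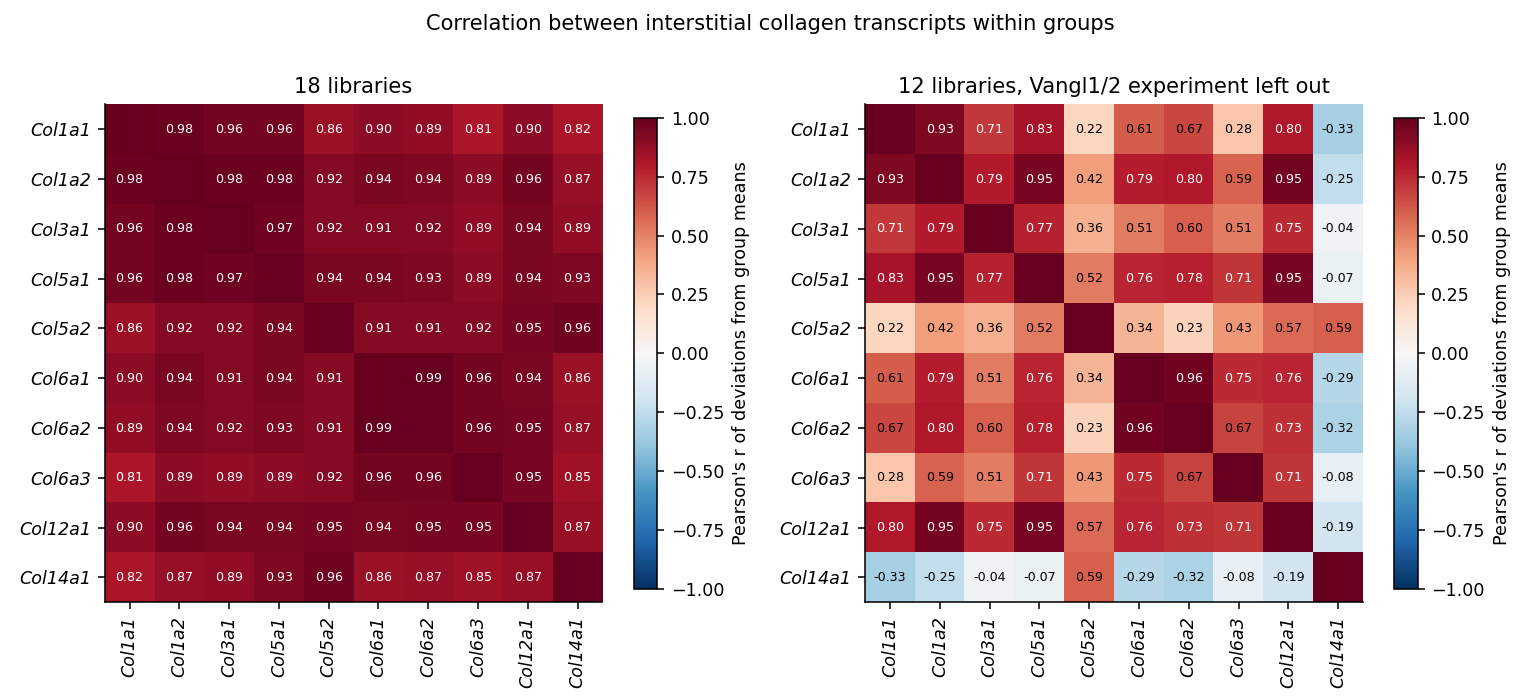
Pearson's r between the interstitial collagens (both axes) for deviations from the group mean on the log2 scale, over 18 libraries (left) and over 12 without the *Vangl1/2* experiment (right). The colour scale runs from −1 to 1; the median is 0.93 on the left and 0.61 on the right, where *Col14a1* stands apart.

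The levels of the 10 overlapped between the controls of the 2 stages. From E12.5 (*Dermo1Cre* controls) to E13.5 (*Sox9Cre* controls), *Col1a1* was at 1849 ± 293 and 1979 ± 303 CPM (reads on the gene scaled to the reads on genes of the library; SD, n = 3), and *Col3a1* at 2576 ± 176 and 2743 ± 257. *Col1a2* was at 1468 ± 158 and 1645 ± 179. *Col12a1* had the largest log2 ratio, 0.28, from 64.1 ± 14.2 to 77.7 ± 20.1, and *Col6a2* the only one below 0, at −0.06. The groups overlapped for all 10, beside 13.7% of all genes whose groups did not. The count changed with single libraries: 5 of 10 had groups without overlap when E12.5 control replicate 3 was left out. It was 1 of 10 without E12.5 control replicate 1, E13.5 control replicate 1 or E13.5 control replicate 2. Smaller groups overlap less readily, and the share over all genes was not taken with a library left out. These counts therefore cannot be set against all genes. The median log2 ratio was 0.09, beside 0.01 over 14309 genes, and 9 of 10 were above 0, beside 55% of all genes. No test was made, since stage, Cre line and the table in which the libraries were scaled cannot be told apart.

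No gene of the wider collagen pathway passed an adjusted p of 0.05 by limma with all libraries in any experiment, over the lists of other collagen chains, folding, processing, cross-linking, receptors, cleavage and upstream regulators. In the *Vangl1/2* experiment, 7 of 16 basement membrane and other collagen chains were higher and 0 lower at an unadjusted p under 0.05, beside 12% of all genes higher. *Col4a3* and *Col4a4*, chains of basement membrane collagen IV, had the smallest p-values, from 65.5 ± 53.7 to 155.5 ± 5.9 and from 159.4 ± 123.2 to 350.2 ± 6.4 normalized counts (log2 fold changes 1.56 and 1.44, limma adjusted p = 0.233 for both). The list median was 0.46. Other fibril-forming chains had a median of 0.42 and other fibril-associated chains 0.42, beside the 0.52 of the interstitial collagens. The other collagen VI chains were at 0.14, with 2 of 3 above 0, and the 20 genes of folding and modification had a median of 0.03. Among these 20, *Tram2*, at 0.85, and *Mia3*, which loads procollagen into transport vesicles, at 0.39, had the smallest p-values (adjusted p = 0.233 by limma for both). *Serpinh1*, the collagen chaperone, named after its values were seen, was at 25924 ± 2734 in the controls and 24336 ± 3815 in the mutants (log2 fold change −0.10, SE 0.15). All 9 collagen receptor genes tested were above 0, with *Ddr2*, a receptor kinase for fibrillar collagen, from 2418 ± 1144 to 3727 ± 117 (0.72, SE 0.27, adjusted p = 0.233). Of 11 upstream regulators 4 were higher and 1 lower at an unadjusted p under 0.05. *Smad3*, a transducer of TGF-β, was at 0.37 (SE 0.11) and *Scx*, the tendon transcription factor, at −0.61 (SE 0.17). *Adamts3*, a procollagen N-proteinase, was at 0.59, *Loxl2*, a cross-linking oxidase, at 0.48 and *Mmp2*, a matrix metalloproteinase, at 0.23.

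These values too rested on the *Vangl1/2* controls. Without control replicate 2, 11 of 15 basement membrane and other collagen chains, 7 of 9 receptors and 4 of 5 other fibril-forming chains were called higher by limma, with list medians of 0.69, 0.71 and 0.70, in the fit that called 21.7% of all genes as higher. *Col4a3* was then at 2.19 and *Ddr2* at 1.08. Of the folding genes 3 of 20 were called higher and 2 lower, with a median of 0.09. Without control replicate 1 or 3, 0 genes of these lists were called, in fits that called 0% of all genes. The median of the basement membrane and other chains was then 0.39 and 0.23. Without both, it was −0.02, that of the other collagen VI chains −0.84 and that of the receptors −0.06. *Col4a3* was then at 0.30, *Ddr2* at 0.0008, *Smad3* at 0.17 and *Scx* at −0.38.

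In the *Dermo1Cre* experiment, *Pcolce*, the enhancer of procollagen C-proteinase, was lower in all 3 mutants, at 1081 ± 119 against 1427 ± 11 normalized counts (log2 fold change −0.41, SE 0.07, limma adjusted p = 0.162). *Col18a1*, a basement membrane collagen, was likewise lower in all 3, at 5223 ± 337 against 6109 ± 29 (−0.23, SE 0.05, adjusted p = 0.194). *Lox*, the lysyl oxidase that starts cross-linking, was at −0.15 (SE 0.06), with overlap. *Tgfb1* was at −0.21 (SE 0.07) and the collagen prolyl hydroxylase gene *P4ha3* at −0.24 (SE 0.11). The medians of the lists lay between −0.22, for the other collagen VI chains, and 0.14.

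In the *Sox9Cre* experiment, *Col6a6*, a further collagen VI chain, was lower in all 3 mutants, at 285.4 ± 45.0 against 437.9 ± 86.9 normalized counts (log2 fold change −0.61, SE 0.16, limma adjusted p = 1.0). *Col5a3*, a further chain of collagen V, was at 15 ± 4.0 against 30.8 ± 10.4. *Col9a1* and *Col9a2*, chains of the cartilage collagen IX, were at 0.68 (SE 0.25) and 0.26 (SE 0.11). Of the 4 cartilage markers tested, of which *Col9a1* is a member, 2 were higher at an unadjusted p under 0.05. In this experiment 3.9% of all genes were under that p. *Matn1*, a cartilage marker, was at 0 in every library of this experiment. *Ctsk*, a collagen-degrading cathepsin, was at −0.84 (SE 0.34) here and −0.85 (SE 0.36) in the *Dermo1Cre* experiment, with low counts of 24.3 to 61.3 on average. The genes of folding, processing and cross-linking had medians of −0.004, −0.008 and −0.009.

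**Figure D5:**
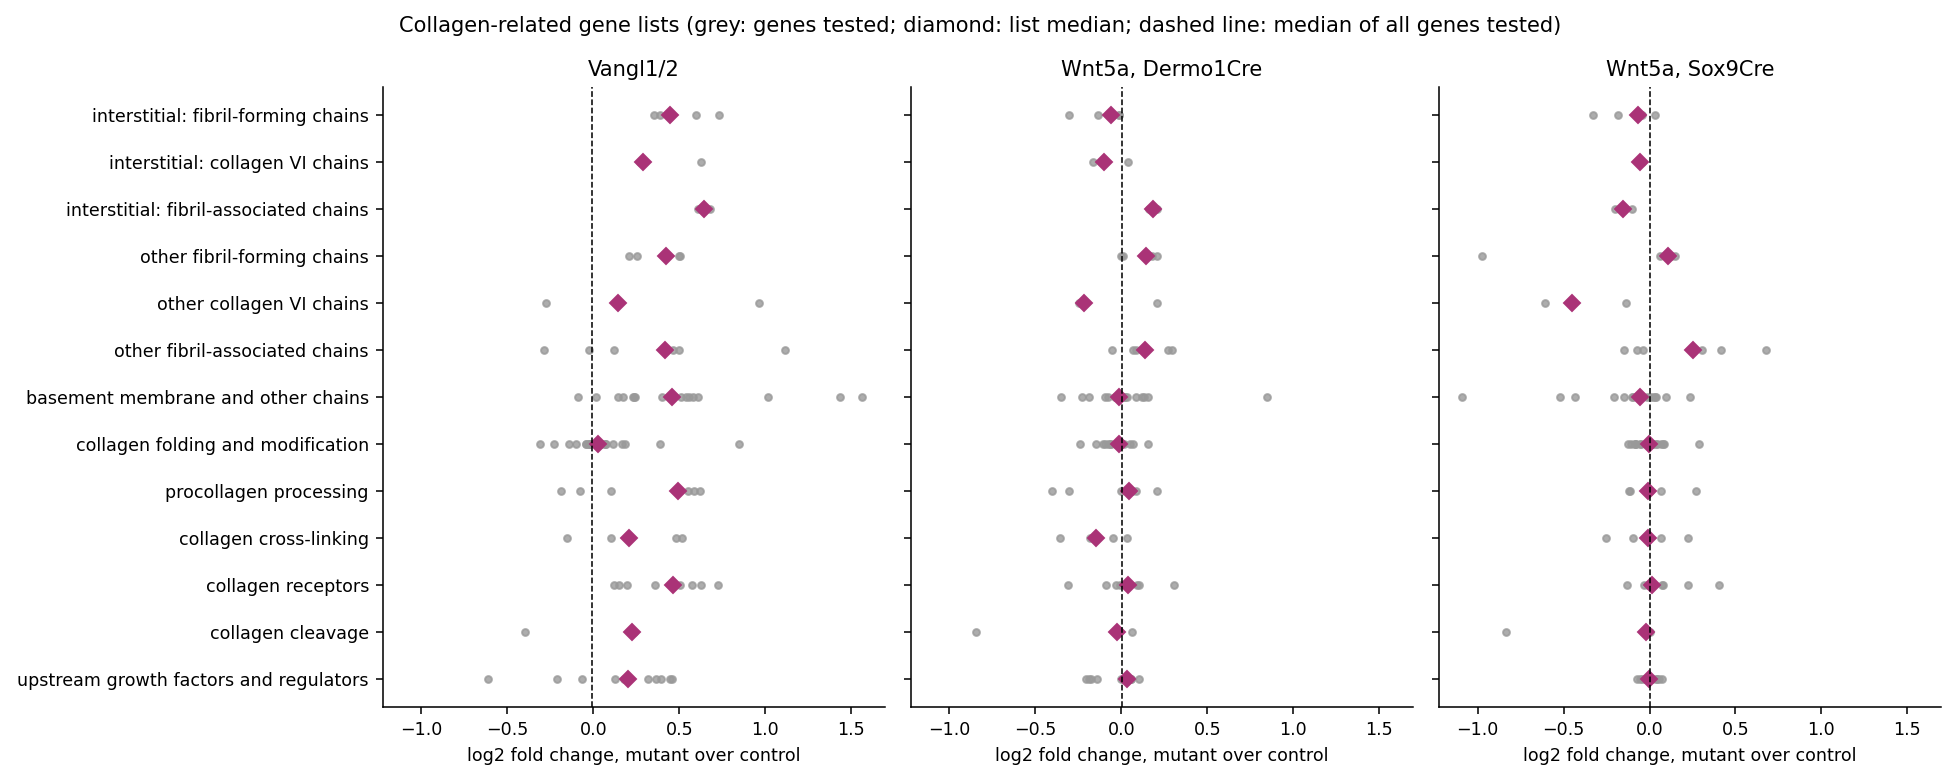
Log2 fold changes of mutant over control (x axis) for the genes of each collagen-related list (y axis) in the 3 experiments. Grey points are genes tested, diamonds list medians and the dashed line the median of all genes tested; in the *Vangl1/2* experiment the interstitial lists have medians of 0.45, 0.29 and 0.64, and the folding list lies at 0.03.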

How the data were processed

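RNA of whole embryonic lungs was sequenced by the authors on Illumina instruments. The submitters' processing notes name Trim Galore, HISAT2, featureCounts, DESeq2 and the mm10 build; the gene annotation and whether counting used strand are not given in the sources used here. The deposited values per library are a signal, gene counts that the authors divided by DESeq2-type size factors. All were whole multiples of a step per library within 4.62e-05 reads, 100% of values, so reads were recovered (15945393 to 19814346 on genes per library, size factors 0.952 to 1.07). The deposited tables also hold the authors' means, fold changes and p-values, which were not used. Dates stood in place of 27 gene names per table.

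Because the values are normalized, limma (version 3.58.1, R 4.3.3) with a mean-variance trend was applied within each table to log2(normalized count + 1), so that fold changes of low genes are understated. Genes that reached 10 normalized counts in 3 or more of the 6 libraries were tested, with Benjamini-Hochberg adjustment over all of them at 0.05. Groups came from the sample labels. Alternatives were edgeR's quasi-likelihood test (version 4.0.16) and DESeq2 (version 1.42.0) on the recovered reads, other scalings, filters and pseudocounts, removal of a trend on transcript length, a replicate block, and each library left out. The fits were tested on simulated data. Lengths came from GENCODE release 21, for 98.3% of gene names. The interstitial collagens and all gene lists were chosen with earlier results of these data known. Named beside them are genes with an adjusted p under 0.05 or the 2 smallest p-values of each list and experiment, the 5 genes most like the mean of the 10 collagens, and *Vangl2* and *Wnt5a*. Marker lists of the endothelium, macrophages and skeletal muscle were also measured and had at most 1 gene at an unadjusted p under 0.05 in an experiment. Python (version 3.11.15) drew the figures.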

Additional observations from a re-analysis of the deposited data

How the results depend on the processing

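Of 480 log2 fold changes of single interstitial collagens under the alternatives, 457 kept their direction and their side of the threshold, 10 passed the threshold (all in the *Vangl1/2* experiment without control replicate 2) and 13 changed sign. These sign changes were all in the *Wnt5a* experiments, near 0 and not called: *Col6a3* in *Dermo1Cre* was at −0.0498 with the trend on transcript length removed, with or without the replicate block. With each library left out in turn, the *Dermo1Cre* log2 fold changes ran from −0.0556 to 0.0374 for *Col5a1*, from −0.0519 to 0.0178 for *Col5a2* and from −0.0732 to 0.139 for *Col6a3*. In *Sox9Cre* they ran from −0.0982 to 0.0299 for *Col3a1*, from −0.127 to 0.00192 for *Col5a1*, from −0.00593 to 0.0658 for *Col5a2* and from −0.14 to 0.113 for *Col6a3*, and *Col1a1* ran from −0.41 to −0.19 in *Dermo1Cre* and from −0.42 to −0.21 in *Sox9Cre*. Leaving out each library gave 0 to 10 called interstitial collagens in *Vangl1/2* and in both of its interactions, and 0 in the other experiments. Without both *Vangl1/2* control replicates 1 and 3, a setting chosen after seeing the data and not among the 480, 0 of 10 were called and all changed sign, to −0.40 for *Col1a1*, −0.33 for *Col1a2*, −0.28 for *Col3a1*, −0.14 for *Col5a1*, −0.10 for *Col5a2*, −0.39 for *Col6a1*, −0.31 for *Col6a2*, −0.67 for *Col6a3*, −1.01 for *Col12a1* and −0.25 for *Col14a1*.

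Over all genes, limma called 1, 2 and 0 in the *Vangl1/2*, *Dermo1Cre* and *Sox9Cre* experiments and DESeq2 20, 100 and 9. Scaling *Vangl1/2* to equal totals gave 0. Leaving out each library gave 0 to 6180, 0 to 52 and 0 to 13. Libraries of the same replicate number correlated over 0.1 in 2 of 9 pairs of deviations only. Such correlations cannot tell whether the numbers pair the samples, so results with a replicate block are given too. With the replicate block, 0, 16 and 0 genes were called. With the length trend removed as well, it was 1 in *Vangl1/2*, 7 in *Dermo1Cre* and 1 in *Sox9Cre*. Of the interstitial collagens 0 were called in any of these. Of the stage difference, 0 to 5 of 10 had groups without overlap when each library was left out, with no share over all genes taken in these settings. With the longest transcript, chain ratios per length were 1.0 for *Col1a1* to *Col1a2*, 1.67 for *Col3a1* to *Col1a1*, 0.549 for *Col5a1* to *Col5a2*, 1.01 for *Col6a1* to *Col6a2* and 6.39 for *Col6a2* to *Col6a3*. Apart from the length used, the causes were not tested. The lowest value of the 10 in any library was 265 normalized counts.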
